A study of Mus musculus with 16 samples.

Results

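Inmt, Upp2, Sult3a1 and Rgn are 4 enzymes of hepatocytes that were chosen by their mean deposited log2 ratios, which lie among the highest in this liver study. Each is the single gene of 1 probe, so they make up 4 of the 6734 named genes and 4 of the 9596 probes on the array. Liver poly(A) RNA was compared between diets in female APOE3Leiden (E3L) mice, which carry a human apolipoprotein E variant as a transgene on a C57BL6/JIco background. Mice of both diets carried the transgene and were 10 weeks old at the start. The control group of 7 mice ate a Western-type diet, diet W (saturated fat 15 g and cholesterol 0.25 g per 100 g), for 4 weeks. The cafestol group of 8 mice ate diet W with 0.04% cafestol and 0.02% kahweol by weight, the diterpenes of unfiltered coffee, for the same time. Which promoter drives the transgene is not stated in these sources.

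Each of the 8 cafestol livers was hybridised on 2 arrays (16 in all), with cafestol liver RNA in Cy5 and control-diet liver RNA in Cy3, and 0 arrays had the dyes swapped. No label names single control mice, so spread of the control RNA cannot be told apart from spread of the cafestol mice. A dye effect of a probe would enter every ratio of that probe. No source used here states which channel is the numerator. Signs are therefore given as deposited, and all of them would turn together if the ratio ran the other way. A log2 ratio gives no expression level, so whether the livers hold the markers of hepatocytes cannot be read from a level here. The mouse identifiers start with SY or TP, 4 mice each, and no label says what these series are.

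Inmt transfers a methyl group from S-adenosylmethionine to small amines such as tryptamine. Upp2 is a uridine phosphorylase of liver, which splits uridine into uracil and ribose 1-phosphate and so takes part in pyrimidine salvage and breakdown. Sult3a1 is a cytosolic sulfotransferase that moves sulfate from the activated donor PAPS to amines, and in mice it is expressed more in female than in male liver. Rgn, also called regucalcin or senescence marker protein, is a calcium-binding protein and the lactonase of the step before the last in vitamin C synthesis. The 4 enzymes therefore do not share a pathway, and what joins them here is the size of their ratio.

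RefSeq promoter windows of build GRCm38.p6, from 250 bases before to 50 bases after the start site, were matched by symbol for 3 of the 4 genes: Inmt (chr6:55174941-55175240, minus strand), Upp2 at 2 start sites (chr2:58567084-58567383 and chr2:58754934-58755233, plus strand) and Sult3a1 (chr10:33857472-33857771, plus strand). They are shown because they are the regulatory sequence next to the genes whose ratios are described, and capitals mark matches on either strand to the motifs searched. The first was AGGTCA, bound by many nuclear receptors. Also searched were GTTAAT, part of the site of the hepatocyte factor HNF1, and TGACNNNGC, the core of the antioxidant response element. The others were the TATA box as TATAAA and the palindromic steroid hormone receptor element.
Inmt: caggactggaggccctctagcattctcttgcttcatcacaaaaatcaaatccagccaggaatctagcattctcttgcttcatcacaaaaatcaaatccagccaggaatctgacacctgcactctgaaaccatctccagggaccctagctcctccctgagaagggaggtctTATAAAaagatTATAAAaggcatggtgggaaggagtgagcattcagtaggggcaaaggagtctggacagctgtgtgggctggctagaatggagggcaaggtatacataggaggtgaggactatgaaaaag
Upp2 start 1: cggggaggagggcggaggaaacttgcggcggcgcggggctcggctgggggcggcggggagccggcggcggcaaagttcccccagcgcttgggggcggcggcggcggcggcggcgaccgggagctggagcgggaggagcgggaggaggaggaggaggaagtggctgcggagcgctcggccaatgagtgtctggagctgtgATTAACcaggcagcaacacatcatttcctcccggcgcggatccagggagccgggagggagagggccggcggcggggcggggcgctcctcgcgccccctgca
Upp2 start 2: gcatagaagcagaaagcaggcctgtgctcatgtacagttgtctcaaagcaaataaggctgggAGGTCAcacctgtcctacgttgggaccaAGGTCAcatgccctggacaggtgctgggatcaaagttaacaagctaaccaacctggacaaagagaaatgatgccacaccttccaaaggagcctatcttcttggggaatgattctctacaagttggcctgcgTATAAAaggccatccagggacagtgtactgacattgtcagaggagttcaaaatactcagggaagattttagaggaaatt
Sult3a1: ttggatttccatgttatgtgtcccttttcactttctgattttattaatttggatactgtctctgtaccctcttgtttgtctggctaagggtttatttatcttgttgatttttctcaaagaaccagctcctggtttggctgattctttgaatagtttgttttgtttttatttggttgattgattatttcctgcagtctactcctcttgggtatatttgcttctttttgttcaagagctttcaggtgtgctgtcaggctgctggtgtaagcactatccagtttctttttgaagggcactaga

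The Inmt window held TATAAA at 2 places, beginning at -80 and -69 from the start site. The second Upp2 window held TATAAA at -29 and AGGTCA at -188 and -160. The first Upp2 window, with a GC content of 75.3%, held GTTAAT at -51 on the minus strand. The Sult3a1 window, with a GC content of 37.3%, held 0 matches to the 5 motifs. Among all 32851 windows of the table, 13.6% held the TATA box, 16.3% the nuclear receptor motif AGGTCA, 7.1% the HNF1 motif, 12.4% the antioxidant core and 0.475% the steroid receptor palindrome. TATAAA was found in 2 of the 4 windows and every other match in 1. No motif was common to all of them, and a match is a match of letters only.

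All 4 enzymes had a positive ratio in 8 of 8 mice, as did 7.49% of the 8348 genes and unnamed probes with values in at least 6 mice. These means chose the enzymes and are described without a test. Against 0, 18.0% of all features were called positive (limma, adjusted p under 0.05) and 25.4% negative. Ranked from the top among 6355 named genes, Inmt was number 3, Upp2 5, Sult3a1 6 and Rgn 12. Their neighbours in that order were the transcription factor Zic1 above Inmt (1.41 ± 0.83) and the major urinary protein Mup9 (1.13 ± 0.84) between Inmt and Upp2. Ornithine aminotransferase Oat (0.84 ± 0.25) came just below Sult3a1. Hpd, of tyrosine breakdown (0.73 ± 0.22), and the acetyltransferase-related Nat8f2 (0.67 ± 0.10) enclosed Rgn (all SD, n = 8 mice).

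Inmt (Entrez 21743) averaged 1.198 ± 0.36 on the log2 scale (SD over 8 mice), which is 2.29-fold. Its mouse values were 0.96 in SY521RL, 1.77 in SY518Z, 0.89 in SY524ROB+L and 1.07 in SY522ROB among the SY mice. In the TP mice they were 0.81 in TP4215, 1.72 in TP4168, 1.14 in TP4205 and 1.23 in TP4163. A pair of mice, SY518Z and TP4168, thus stood above the other 6, which lay between 0.81 and 1.23. SY518Z rests on 1 array, because its array with code bl7 was blank for this probe. The arrays of the other 7 mice agreed closely: they were identical in 3 and differed by at most 0.08 in the others, with a within-mouse SD of 0.04.

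Upp2 (Entrez 76654) averaged 1.02 ± 0.51 on the log2 scale (SD over 8 mice), which is 2.02-fold. Its values were 1.0 in SY521RL, 1.35 in SY518Z, 0.54 in SY524ROB+L and 0.38 in SY522ROB. They were 0.84 in TP4215, 1.23 in TP4168, 1.996 in TP4205 and 0.81 in TP4163. TP4205 was highest on both of its arrays (1.89 and 2.10), and SY522ROB, with 0.38 on both arrays, was lowest, a 3.07-fold distance between the ends. The least certain mouse was TP4215, whose arrays read 0.49 and 1.202, and the within-mouse SD over the 8 mice was 0.20.

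Sult3a1 (Entrez 57430) averaged 0.92 ± 0.49 on the log2 scale (SD over 8 mice), which is 1.89-fold. Its values were 1.48 in SY521RL, 1.58 in SY518Z, 1.14 in SY524ROB+L and 0.58 in SY522ROB. They were 0.68 in TP4215, 0.88 in TP4168, 0.07 in TP4205 and 0.92 in TP4163. TP4205, the mouse with the highest Upp2 ratio, was the lowest for Sult3a1, with 0.14 and 0.00 on its arrays, so this mouse was at most 1 rounding step from no difference. The highest mouse, SY518Z, was also the one whose arrays disagreed most: 1.96 on the array with code bl7 and 1.202 on the array with code c3z. The within-mouse SD was 0.22. The cDNA probe may also bind transcripts of the close relative Sult3a2.

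Rgn (Entrez 19733) had the smallest and most even ratio of the 4, averaging 0.73 ± 0.27 on the log2 scale (SD over 8 mice), which is 1.66-fold. Its values were 0.72 in SY521RL, 1.202 in SY518Z, 0.43 in SY524ROB+L and 0.59 in SY522ROB. They were 0.72 in TP4215, 1.0 in TP4168, 0.43 in TP4205 and 0.72 in TP4163. SY518Z and TP4168 were again the highest mice, and SY524ROB+L and TP4205 the lowest. The arrays were identical in 3 mice and differed by at most 0.11 in the others (within-mouse SD 0.05).

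**Figure D1:**
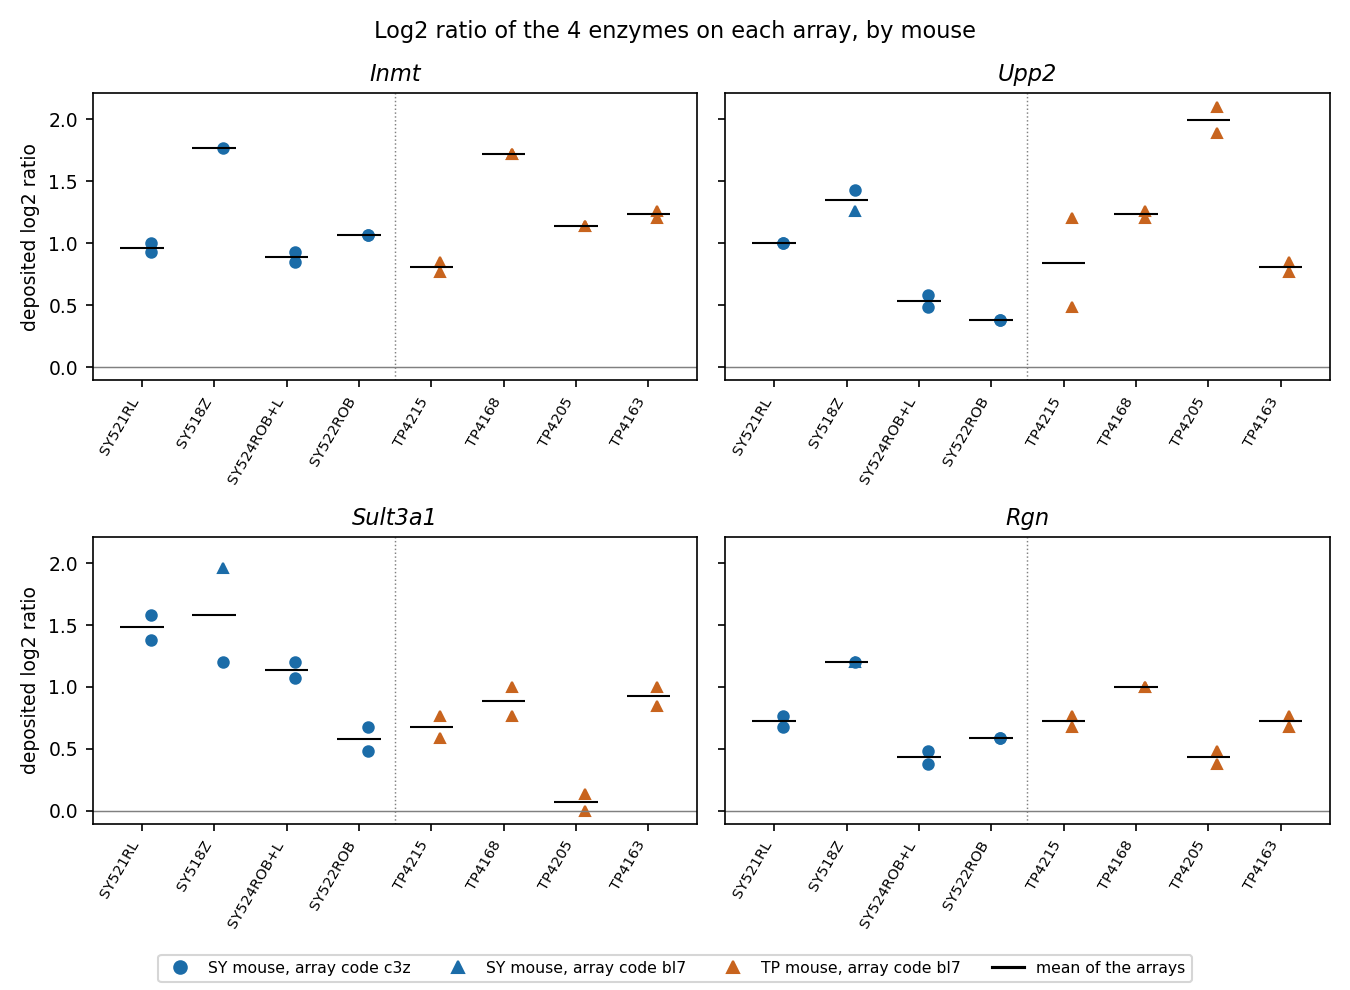
Deposited log2 ratio (vertical axis) of each enzyme on each array, by mouse (horizontal axis), with SY mice in blue, TP mice in orange, circles for array code c3z, triangles for array code bl7 and a black line at the mean of a mouse's arrays. Inmt and Rgn are highest in SY518Z and TP4168, while in TP4205 Upp2 is highest (1.996) and Sult3a1 lowest (0.07).

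The ratios differed among mice by more than the arrays of a mouse did. The SD over mice was 9.13 times the within-mouse SD for Inmt, 4.97 times for Rgn, 2.62 times for Upp2 and 2.20 times for Sult3a1. For Inmt and Rgn, arrays of the same mouse never differed by more than 0.1 in the ratio, the step of the deposited values. Their within-mouse SD, which enters these multiples and the F values, therefore lies at the limit set by rounding. The order of the 4 enzymes by multiple or by F is thus not interpreted. In limma's F test for differences among the 8 mice, added after the values were seen, all 4 passed: Inmt (F = 113, adjusted p = 4.0e-06), Rgn (F = 48.5, adjusted p = 2.54e-05), Upp2 (F = 17.3, adjusted p = 0.000678) and Sult3a1 (F = 12.2, adjusted p = 0.00186). Of the 7965 features tested this way 60.1% passed, so passing was common and marks nothing particular to the enzymes. The F test takes the arrays of a mouse as its error, and a difference among mice here includes anything both arrays of a mouse share. The SD over mice was larger for Inmt than for 99.3% of the 8348 features, for Upp2 and Sult3a1 than for 99.8% and for Rgn than for 97.5%, where the median SD was 0.11. Against the other 23 named genes with means at least as far from 0 as Rgn, whose median SD was 0.23, Upp2 and Sult3a1 were each exceeded by 2 genes, Inmt by 5 and Rgn by 9.

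Between the SY and TP mice, a contrast the choice of genes did not use, 0 of the 4 enzymes passed limma's test after adjustment over all features, as 5.7% of the 8348 features did. At an unadjusted p under 0.05, 1 of the 4 passed, against 24.8% of all features. Sult3a1 averaged 1.196 ± 0.45 in SY and 0.64 ± 0.39 in TP mice (SD over 4 mice each). The difference of 0.56 had a 95% interval of 0.09 to 1.03 and an adjusted p of 0.139 in limma's test (0.0243 unadjusted). The series overlapped, because SY522ROB (0.58) lay below 3 of the TP mice. Upp2 averaged 0.82 ± 0.44 in SY and 1.22 ± 0.55 in TP mice (difference -0.40, interval -0.96 to 0.15, limma adjusted p = 0.341). Inmt averaged 1.17 in SY and 1.22 in TP mice (difference -0.05, interval -0.49 to 0.38, limma adjusted p = 0.879), and Rgn 0.74 and 0.72 (difference 0.02, interval -0.31 to 0.34, adjusted p = 0.96). Without TP4205 the differences were 0.37 for Sult3a1 and -0.15 for Upp2. All TP arrays carry the code bl7 and the SY arrays c3z, save 1 of the arrays of SY518Z, and the SD of all ratios was 0.17 to 0.21 on c3z and 0.21 to 0.26 on bl7 arrays. With arrays scaled to a common SD the Sult3a1 difference was 0.71 (limma adjusted p = 0.0692). Apart from SY518Z, series and array code cannot be told apart.

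**Figure D2:**
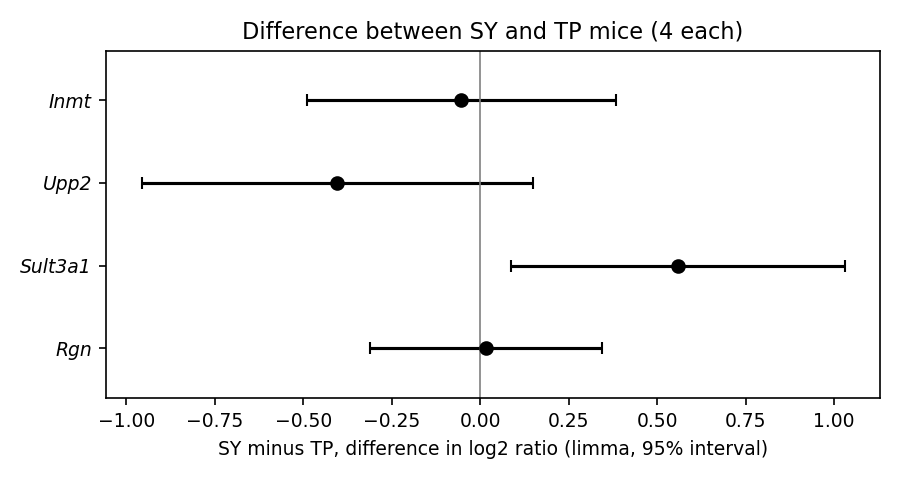
Difference in log2 ratio between SY and TP mice (horizontal axis, points) for each enzyme, with the 95% interval of limma's fit (bars), 4 mice per series. The interval of Sult3a1 (0.09 to 1.03) lies above 0 before adjustment, and the intervals of the other 3 include 0.

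Whether mice with a high ratio for 1 enzyme also had a high ratio for another was examined over the 8 mice for the 6 pairs, and 0 of 6 passed after adjustment. The closest pair was Inmt and Rgn (Pearson r = 0.80, exact permutation p = 0.0217, adjusted p = 0.13; Spearman rho = 0.58, exact p = 0.145, adjusted p = 0.432). Without SY518Z and TP4168, the mice farthest from the Inmt median, r was -0.05 over 6 mice, so the relation rested on that pair. It was 0.59 without SY518Z and SY524ROB+L, the mice farthest from the Rgn median, and 0.65 to 0.89 with any 1 mouse left out. Rgn and Sult3a1 had r = 0.59 (exact permutation p = 0.126, adjusted p = 0.379; rho = 0.53, exact p = 0.188, adjusted p = 0.432), and without SY518Z and SY524ROB+L r was 0.60, but -0.07 without TP4205 and SY518Z, the mice farthest from the Sult3a1 median. Inmt and Upp2 had r = 0.41 (exact permutation p = 0.307, adjusted p = 0.614; rho = 0.50, exact p = 0.216, adjusted p = 0.432) and 0.30 without SY518Z and TP4168, or 0.83 without TP4205 and SY522ROB, the mice farthest from the Upp2 median. Inmt and Sult3a1 had r = 0.28 (exact permutation p = 0.503, adjusted p = 0.621; rho = 0.21, exact p = 0.619, adjusted p = 0.743) and -0.33 without SY518Z and TP4168, or -0.12 without TP4205 and SY518Z.

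Leaving out TP4205 moved both remaining pairs most. Upp2 and Rgn had r = 0.17 (exact permutation p = 0.685, adjusted p = 0.685; rho = 0.34, exact p = 0.401, adjusted p = 0.602), but r = 0.91 without TP4205 (exact permutation adjusted p = 0.0357, 7 mice) and 0.97 without TP4205 and SY522ROB. Without SY518Z and SY524ROB+L, the mice farthest in Rgn, it was -0.26. The adjusted p of 0.0357 (exact permutation) follows leaving out the mouse that moved r most. Dixon's test for a value far from the others did not flag TP4205 in Upp2 (gap over range 0.40, critical value 0.526). Upp2 and Sult3a1 had r = -0.27 (exact permutation p = 0.518, adjusted p = 0.621; rho = 0.05, exact p = 0.935, adjusted p = 0.935), 0.58 without TP4205 (exact permutation adjusted p = 0.258) and 0.38 without TP4205 and SY522ROB, or 0.34 without TP4205 and SY518Z. With the means of the SY and TP series taken out, the 6 correlations ran from -0.02 to 0.81 and 0 passed (lowest exact permutation adjusted p = 0.126), while 4 mice per series are too few for a correlation within each. In these pairs both values come from the same arrays and the same control RNA.

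**Figure D3:**
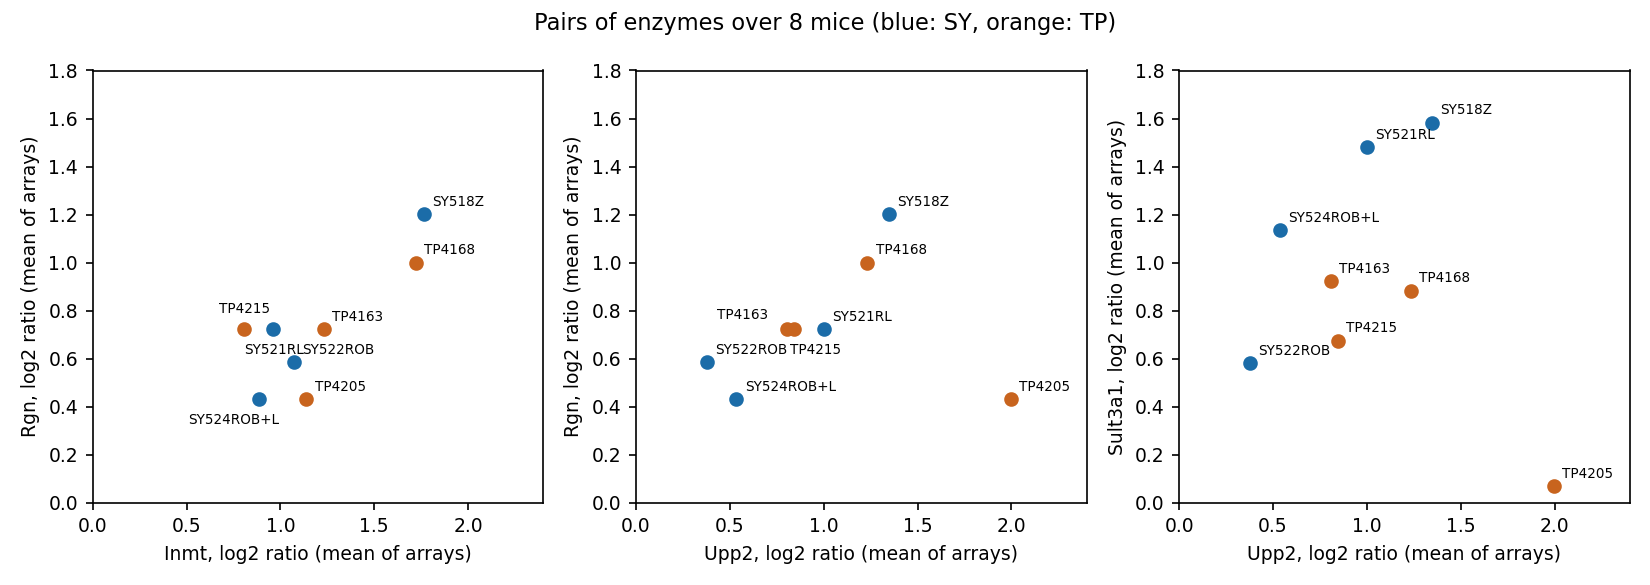
Mean log2 ratio of each mouse for 3 pairs of enzymes (axes), SY mice in blue and TP mice in orange, each point labelled with its mouse. TP4205 lies apart from the other 7 mice in both plots with Upp2, and SY518Z and TP4168 lie apart in the plot of Inmt and Rgn.

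The genes whose ratios followed an enzyme most closely over the 8 mice were sought among 136 named genes with values in all 8 mice and a SD of at least 0.27. These correlations are descriptions, since all genes share the arrays and the control RNA. The genes named are the extremes of 136 over only 8 mice, so the search itself favours an r far from 0. Leaving out a mouse shows how far r rests on that mouse and does not address this choice. Nearest to Inmt were the steroid- and drug-oxidising cytochromes Cyp2b9 (r = 0.91) and Cyp2b10 (r = 0.90), whose probes may bind each other's transcripts, and the corticosteroid-binding globulin Serpina6 (r = 0.84). Cyp2b9 read 1.35 in SY518Z and 0.72 in TP4168, the same mice that led for Inmt, and 0.07 to 0.43 in the other 6. With any 1 mouse left out, r with Cyp2b9 stayed at 0.90 or above.

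Upp2 was followed by the lipogenic regulator Thrsp (r = 0.90), the coenzyme Q protein Coq10b (r = 0.83) and the glucose 6-phosphate transporter Slc37a4 (r = 0.79), and ran most opposite to Insig2, which restrains sterol regulatory element binding proteins (r = -0.83). TP4205 was the highest mouse for Thrsp (1.29), Coq10b (0.85) and Slc37a4 (0.81) and the lowest for Insig2 (-0.72). Without TP4205 r was 0.86 with Thrsp, 0.71 with Coq10b, 0.66 with Slc37a4 and -0.54 with Insig2. Sult3a1 was followed by Mup9 (r = 0.88), the liver fatty acid binding protein Fabp1 (r = 0.84) and Rarres1 (r = 0.82), and ran opposite to the aminotransferase Got1 (r = -0.82). Got1 was highest in TP4205 (1.0) and lowest in SY518Z (-0.32), the ends of the Sult3a1 order in reverse.

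Rgn was followed by the cytochrome Cyp2c68 (r = 0.89), the glucocorticoid-activating enzyme Hsd11b1 (r = 0.86) and transthyretin, Ttr (r = 0.86). Without SY518Z these were 0.82, 0.72 and 0.80. Hsd11b1 read 0.81 in SY518Z, 0.26 in TP4168 and -0.14 to 0.00 in the other mice. The genes most opposite to Rgn and Inmt were matrix genes of stellate cells and fibroblasts: the collagen Col1a1 for Rgn (r = -0.95) and the proteoglycan lumican, Lum, for Inmt (r = -0.96). Col1a1 read -0.80 in SY518Z and -0.59 in TP4168, and Lum -0.76 and -0.68. Without SY518Z the correlations were -0.91 and -0.93.

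The whole marker lists were therefore set beside the enzymes. The stellate cell and fibroblast list includes Col1a1 and Lum, and the hepatocyte list Ttr, all picked above by correlation with Rgn or Inmt. They stayed in these lists, so the list medians are not independent of that choice. Of the 18 stellate cell and fibroblast markers measured, 12 were called negative and 0 positive (limma, adjusted p under 0.05), with a median of -0.20 against -0.02 over all features, of which 25.4% were negative and 18.0% positive. The median of this list was -0.53 in SY518Z and -0.32 in TP4168, where Inmt and Rgn were highest, and between -0.23 and 0.00 in the other 6 mice. Of 19 Kupffer cell and macrophage markers 13 were negative and 1 positive, and their median was -0.26 in SY518Z and -0.23 in TP4168, within the range of the other mice (-0.38 to 0.07). Of 14 hepatocyte markers 6 were positive, such as Hpd, the lectin Asgr1 (0.41 ± 0.20) and fibrinogen Fgb (0.23 ± 0.11), and 2 negative, the apolipoprotein Apoa1 (-0.52 ± 0.35) and the tryptophan dioxygenase Tdo2 (-0.27 ± 0.22). Albumin, Alb (0.14 ± 0.30), and Ttr (-0.05 ± 0.29), looked up after their values were seen, were not called. The hepatocyte median was 0.32 in SY518Z and 0.13 in TP4168 and ranged from -0.10 to 0.35 in the other 6 mice, with the highest in TP4215, the lowest mouse for Inmt. Endothelial markers (3 of 10 negative, 1 positive), bile duct markers (5 of 9 and 1) and lymphocyte and neutrophil markers (8 of 18 and 1) were also counted, and the endothelial share lies near that of all features. The bile duct median was also lowest in SY518Z and TP4168 (-0.32 in both, against -0.20 to 0.00 in the other 6 mice). The endothelial (-0.07 and -0.03) and lymphocyte (-0.13 and 0.00) medians of SY518Z and TP4168 lay within the range of the others. In pieces of whole liver, fewer cells of a type and less RNA per cell cannot be told apart. The part of the cell makeup in the ratios of Inmt and Rgn was not tested.

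**Figure D4:**
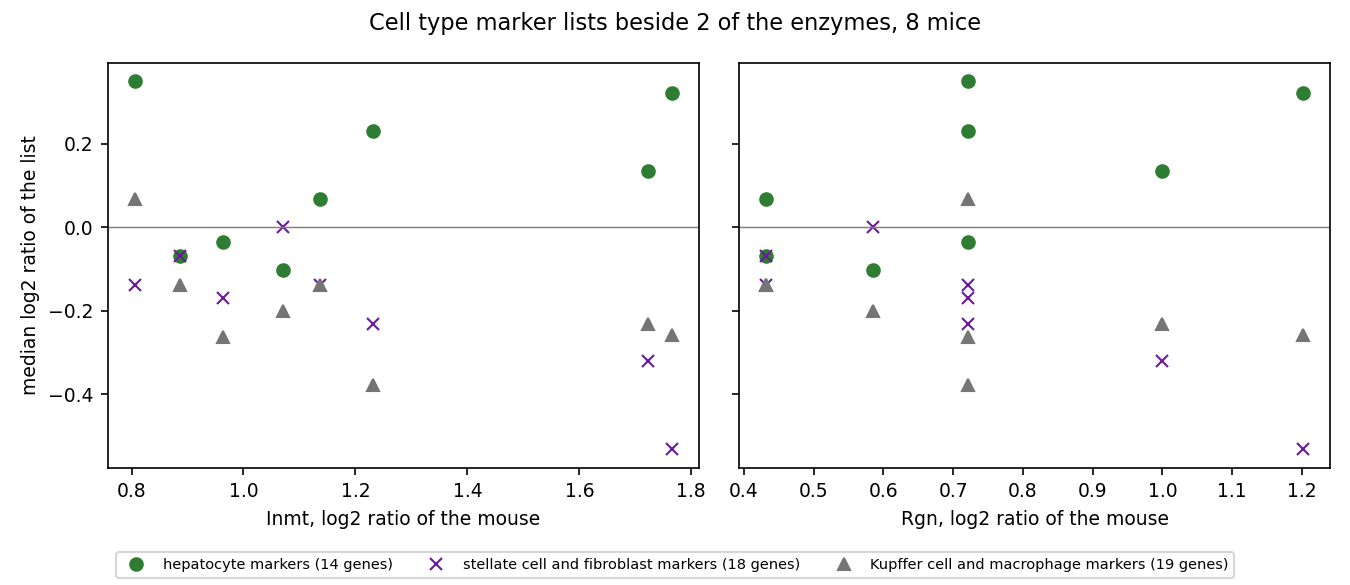
Median log2 ratio of 3 marker lists (vertical axis: hepatocyte, stellate cell and fibroblast, Kupffer cell and macrophage) against the log2 ratio of Inmt (left) and Rgn (right) in each of the 8 mice. The lowest stellate medians, -0.53 and -0.32, fall in the mice with the highest Inmt and Rgn ratios. The stellate list includes Col1a1 and Lum, which were picked by their correlations with these enzymes in the same mice.

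The other genes of the enzymes' pathways mostly had small ratios in either direction. Across 9 pathway, sex and zonation lists, without the 4 enzymes, 107 distinct genes were tested, and 34 were positive, 28 negative and 45 not called, against a background of 43.4% of all features called in either direction (18.0% positive, 25.4% negative). Most of these calls were of small differences. Against a minimum fold of 1.2, 0 calls were left in the pyrimidine, calcium, sulfation and periportal lists, 1 each in the ascorbate and male-biased lists, 2 each in the methyl group and female-biased lists and 5 in the pericentral list. With control mice taken to vary like the treated ones, the methyl group list kept 7 calls and the pyrimidine and pericentral lists 5 each. The ascorbate and female-biased lists then kept 4 each, the calcium list 3, and the sulfation, male-biased and periportal lists 2 each. In the list of methyl group and S-adenosylmethionine enzymes 9 of 16 genes were positive and 4 negative (median 0.16, against -0.02 over all features). Highest were nicotinamide methyltransferase Nnmt (0.61 ± 0.22, limma adjusted p = 2.8e-05), the folate enzyme Shmt1 (0.51 ± 0.11) and the choline-degrading Dmgdh (0.41 ± 0.14). Negative were spermidine synthase Srm (-0.24 ± 0.11), Mettl7b (-0.21 ± 0.08) and mitochondrial Shmt2 (-0.12 ± 0.10).

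Pyrimidine genes went both ways. Of 22 tested, 3 were positive, 4 negative and 15 not called (median 0.02). Positive were the nucleoside transporter Slc29a1 (0.45 ± 0.20), dihydropyrimidinase Dpys, a later step of uracil breakdown (0.31 ± 0.18), and thymidylate synthase Tyms (0.25 ± 0.13). Negative were the kinase Cmpk1 (-0.30 ± 0.13), CTP synthase Ctps (-0.17 ± 0.03) and cytidine deaminase Cda (-0.12 ± 0.10). The other uridine phosphorylase, Upp1, was at 0.03 ± 0.24 (adjusted p = 0.782, limma), against 1.02 ± 0.51 for Upp2, and was named after its value was seen.

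In the ascorbate and glucuronate list 4 of 10 genes were positive and 4 negative (median 0.06). Gulo, the enzyme that acts directly after Rgn in vitamin C synthesis, was its highest gene, at 0.53 ± 0.07 and positive in 8 of 8 mice (limma, adjusted p = 6.02e-07), followed by Dhdh (0.20 ± 0.12) and Dcxr (0.16 ± 0.13). Ugp2, which makes UDP-glucose upstream in that route, was the lowest (-0.46 ± 0.20, adjusted p = 8.41e-05, limma), with the glucuronosyltransferase Ugt2b36 (-0.24 ± 0.21) and the glucuronidase Gusb (-0.16 ± 0.14). The calcium genes, the other setting in which Rgn is known, held 0 positive and 7 negative of 17 (median -0.05), of which 0 passed against a minimum fold of 1.2 and 3 when control mice were taken to vary like the treated ones. The negative calls were led by calreticulin Calr (-0.44 ± 0.14), the calcium channel Itpr3 (-0.34 ± 0.09) and S100a6 (-0.27 ± 0.23).

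Among the other genes of sulfation 3 of 9 were positive and 1 negative (median -0.02), namely the sulfate transporter Slc26a1 (0.25 ± 0.17), the sulfotransferases Sult1b1 (0.22 ± 0.23) and Sult5a1 (0.20 ± 0.19) on the positive side and the nucleotidase Bpnt1 (-0.17 ± 0.07) on the negative. Of 6 further female-biased genes 5 were positive and 1 negative (median 0.32), with the steroid hydroxylase Cyp17a1 (0.83 ± 0.31), Cyp2c69 (0.61 ± 0.15) and Cyp2b9 (0.43 ± 0.43) highest and the oxidase Hao2 at -0.17 ± 0.10. Of 5 male-biased genes 1 was positive, Cyp2d9 (0.29 ± 0.17), and 2 negative, the transferase Gstp1 (-1.88 ± 0.16) and Cyp7b1 (-0.17 ± 0.12).

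Inmt and Rgn were also listed as pericentral genes, expressed around the central vein. Of the 11 others 6 were positive and 1 negative (median 0.16): Cyp7a1 of bile acid synthesis (1.56 ± 0.38), Oat and the glutamate transporter Slc1a2 (0.58 ± 0.23) were highest, and the transferase Gstm1 was at -2.48 ± 0.23. The pericentral markers Glul (0.16 ± 0.25) and Axin2 (0.03 ± 0.10), named after their values were seen, were not called. Of 12 periportal genes 4 were positive, led by Pck1 (0.47 ± 0.41), Igfbp2 (0.46 ± 0.18) and G6pc (0.30 ± 0.42), and 4 negative, led by Cyp2f2 (-0.60 ± 0.38), Hal (-0.35 ± 0.29) and Hsd17b13 (-0.22 ± 0.23), with the same median to 2 decimals (0.16). All SDs are over 8 mice.

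**Figure D5:**
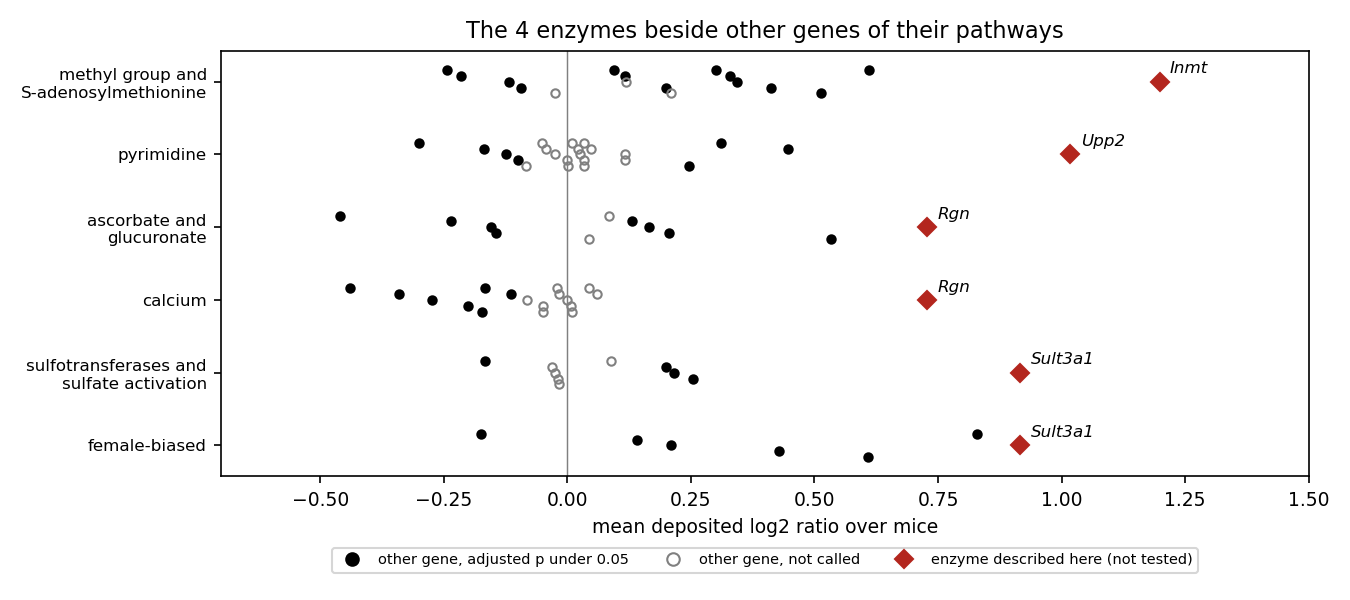
Mean deposited log2 ratio over mice (horizontal axis) of the genes in 6 of the lists (one per line), with filled points for genes with an adjusted p under 0.05, open points for the others and red diamonds for the 4 enzymes, which were not tested. In these 6 lists each enzyme lies to the right of every other gene, which the choice by size favours, with Gulo (0.53) and Cyp17a1 (0.83) the nearest in the ascorbate and female-biased lists. This does not hold in the pericentral list, which is not drawn and also holds Inmt and Rgn. There Cyp7a1 (1.56) lay above Inmt and Rgn, and Oat (0.84) above Rgn.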

How the data were processed

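Values deposited by the authors, from 16 hybridisations to a 2-colour cDNA array, are log2 ratios; no label names this scale, and it was read from the values. How they were normalized, how background and blanks were treated and which way the ratio runs were not stated in these sources. Every one of the 144660 values fits the logarithm of a ratio rounded to 1 decimal, with either sign (tolerance 0.01 on 10 times the ratio), and the least value other than 0 is 0.14. Each array had a median of 0 and 8094 to 9314 values, and the number of arrays and mice limits the precision.

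Probes were named from the platform annotation (7407 with 1 symbol, 437 with several, 1752 with none), and those of a gene were averaged. The 2 arrays of a mouse, made from the same RNA, were averaged to 1 replicate. Features with values in at least 6 mice were fitted with limma 3.58.1 (lmFit, eBayes, two-sided, Benjamini-Hochberg over all features, threshold 0.05) in R 4.3.3: the mean against 0, and SY minus TP. The F test across mice needed a value in every mouse and at most 2 blank arrays. Correlations used exact two-sided permutation tests over mice, adjusted over the 6 pairs. The scripts were tested on simulated data. The 4 enzymes and all gene lists were chosen with earlier results of these data known. Named were the 4 enzymes, their neighbours in rank, the 3 most like and 1 most opposite gene for each, and up to 3 called genes per list and side. Alternatives covered centring, scaling, quantile normalization, single arrays, arrays blocked by mouse, blanks, single probes, robust moderation, a minimum fold of 1.2, the spread of control mice and leaving out each mouse. Figures were drawn with matplotlib 3.10.9.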

Additional observations from a re-analysis of the deposited data

How the results depend on the processing

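The mean ratios of the 4 enzymes stayed within 1 SD of the values given under every alternative run, including each mouse left out. The SY minus TP difference had an adjusted p above 0.05 for all 4 enzymes under every alternative run (limma, lowest 0.0555, for Sult3a1 after quantile normalization). For Inmt it turned positive with arrays scaled to a common SD (0.17) and after quantile normalization (0.29), and for Rgn negative on the first arrays (-0.017). Leaving out 1 mouse gave -0.25 to 0.11 for Inmt (0.042 without SY524ROB+L) and -0.14 to 0.12 for Rgn. The number of features that differed between SY and TP (476) was 1249 without SY518Z, 43 without SY521RL, 52 without SY524ROB+L, 57 without SY522ROB, 77 without TP4205, 183 without TP4215, 188 without TP4168 and 569 without TP4163, and 0 on the first arrays. Correlations reversed for Inmt and Upp2 (-0.29) and Upp2 and Rgn (-0.23) after quantile normalization and for Inmt and Sult3a1 on the first arrays (-0.22, 7 mice). With 1 mouse left out, r ran from -0.10 to 0.47 for Inmt and Sult3a1, -0.027 to 0.91 for Upp2 and Rgn (-0.0009 without SY524ROB+L) and -0.51 to 0.58 for Upp2 and Sult3a1. In the pathway lists the 34 positive and 28 negative calls fell to 8 and 2 against a minimum fold of 1.2, and to 19 and 14 when the control mice were taken to vary like the treated ones. The F test across mice kept its call for all 4 enzymes under the 3 scalings run, which were chosen after seeing the data. The cause was not tested for any of these shifts.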
